A study of Mus musculus with 6 samples.

Results

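The genes described are those of the glycinergic synapse: the glycine receptor subunits Glra1, Glra2, Glra3 and Glrb, the receptor scaffold Gphn (gephyrin), and the transporters Slc6a5 (GlyT2), Slc6a9 (GlyT1) and Slc32a1 (VIAAT). They were found by gene symbol among the probe sets of an Affymetrix array, a probe set being the group of short probes that report 1 transcript region. Of the 8 genes, 7 had a probe set with that symbol alone, 10 probe sets of 22690 in all. Glra2 had none and is not analysed here. A total of 8 probe sets, for Glra1, Glrb, Gphn, Slc6a9 and Slc32a1, had a mean log2 value above 4 over the arrays and were tested, while the single probe sets of Glra3 and Slc6a5 were dimmer and were not.

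Glycine is, with GABA, the fast inhibitory transmitter of the brainstem, and glycinergic inhibition sharpens the timing and frequency tuning of cochlear nucleus neurons. Glycinergic neurons take glycine up at their terminals through GlyT2 and load it into vesicles through VIAAT, a carrier that also serves GABA. The released glycine opens chloride channels built of alpha subunits, which form the ligand site and pore, and the beta subunit, which binds gephyrin and so anchors the receptor at the synapse. Glial GlyT1 removes glycine from the cleft.

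The tissue was mouse cochlear nucleus at postnatal day 21. Tetrodotoxin, a sodium channel blocker that silences action potentials, had been delivered to 1 cochlea by osmotic pump for 24 h. The nucleus on the infused (ipsilateral) side was compared with that on the opposite (contralateral) side, with 3 replicates per side, each pooled from 10 to 12 mice and measured on 1 array. Every contralateral sample thus came from an infused mouse and no untreated mouse was measured, and the labels give no strain, sex or genotype. All values are log2 expression values and differences are ipsilateral minus contralateral.

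Over the whole array 0 of 15298 tested probe sets passed an adjusted p of 0.05 in limma (0%), and 364 (2.38%) had an unadjusted p under 0.05. Array medians lay between 5.86 and 5.91. Fos, the activity-induced transcription factor, differed by -1.85, with no overlap of the sides. Its unadjusted limma p was 0.000215, and it too did not pass after adjustment. Markers of choroid plexus, the secretory tissue that borders the nucleus, averaged 7.23 to 7.98 on the contralateral arrays, 8.99 on ipsilateral array 1 and 4.85 and 4.95 on ipsilateral arrays 2 and 3, with 9 of 9 lower by their mean difference. Of 7 Hox genes of the hindbrain with a probe set, 3 (Hoxa2, Hoxb2 and Hoxa3) were above the minimum of 4, and of 4 forebrain genes Neurod6 and Bcl11b were. Gabra6, the GABA-A subunit of granule cells, averaged 10.64 contralaterally. Granule cells are found both in the cochlear nucleus and in the neighbouring cerebellum.

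After 24 h of silenced input, no tested gene of the glycinergic synapse passed the test in either direction, nor did any other tested probe set. None of the 8 tested probe sets passed an adjusted p of 0.05 in limma (background 0%), 0 had an unadjusted p under 0.05 (background 2.38%), 0 had sides that did not overlap (background 6.26%), and 0 kept 1 sign over all 3 replicates (background 23.7%). With 8 probe sets, counts of 0 do not set the members apart from these backgrounds. By sign 5 were higher on the infused side and 3 lower, where 48.2% of all tested probe sets were higher. The count of higher ones was 3 with choroid plexus level in the fit, 3 with ipsilateral array 1 alone against the contralateral arrays, and 6 after median centring. Their median difference was 0.018, against -0.0055 for all tested probe sets, and their median absolute difference was 0.070 against 0.080. A bulk measurement does not separate fewer cells of a type from less RNA per cell.

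**Figure D1:**
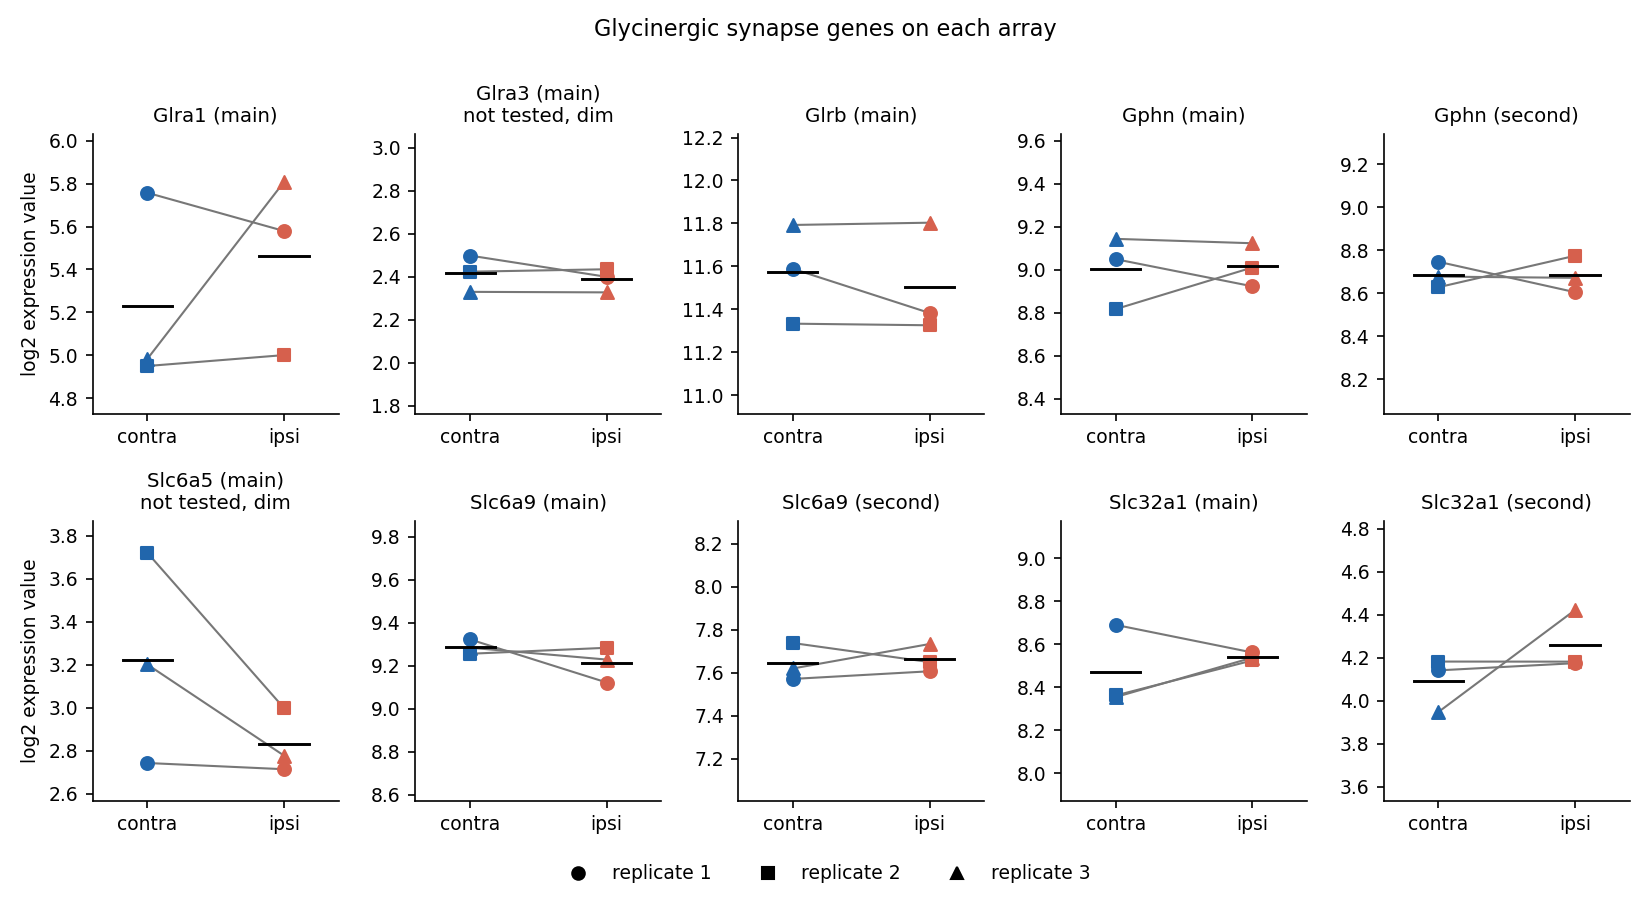
The log2 expression value of each probe set is plotted for the contralateral (blue) and ipsilateral (red) array of every replicate, with lines joining the arrays of 1 replicate number and black bars at the mean of 3 arrays. All panels span the same height in log2 units, so steep lines mark large differences: the sides overlap in every panel, and Glra1 and Slc6a5 spread most, over 0.86 and 1.01.

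Among the receptor subunits, Glra1 encodes the alpha subunit of adult synaptic glycine receptors, and its probe set (1422277_at) measured 5.76, 4.95 and 4.98 on contralateral arrays 1 to 3 and 5.58, 5.002 and 5.81 on ipsilateral arrays 1 to 3. Replicate 1 was high on both sides, replicate 2 was low on both, and replicate 3 was low on the contralateral and highest on the ipsilateral array. The mean was 5.23 ± 0.46 contralaterally and 5.46 ± 0.42 ipsilaterally (SD, n = 3 each). The difference of 0.23 (SE 0.28) rested on replicate 3, whose sides differed by 0.82, against -0.18 and 0.051 in replicates 1 and 2. In limma its unadjusted p was 0.440 and its adjusted p 1.00, and the 95% interval ran from a 0.737-fold to a 1.87-fold level on the infused side. The difference was -0.064 without replicate 3 on both sides and 0.50 without contralateral replicate 1.

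Glrb, the beta subunit that tethers the receptor to gephyrin, measured 11.59, 11.33 and 11.79 contralaterally and 11.38, 11.33 and 11.80 ipsilaterally (1422504_at). The replicates differed more than the sides did: both arrays of replicate 3 were the highest and both of replicate 2 the lowest. Within replicates the sides differed by -0.21, -0.0075 and 0.011, a mean difference of -0.067 (SE 0.17) between 11.57 ± 0.23 and 11.50 ± 0.26 (SD, n = 3 each). The unadjusted limma p was 0.708, and the 95% interval covered 0.718-fold to 1.27-fold. The small negative difference came from replicate 1, without which it was 0.0016. Pan-neuronal markers were likewise highest in replicate 3, with a mean over 13 genes of 10.54 contralaterally and 10.68 ipsilaterally, against 10.37 to 10.47 on the other arrays, and markers of cerebellar cells reached 8.59 and 8.70 there, against 8.09 to 8.29. The part of these levels in the Glrb values was not tested. The cerebellar list includes the granule cell gene Gabra6, so its mean does not separate cerebellum from cochlear nucleus. By side, 6 of its 13 tested genes were higher and 7 lower, from -0.48 (Calb1) to 0.30 (En2).

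Glra3, the alpha subunit known from spinal pain circuits, stayed between 2.33 and 2.50 on all 6 arrays (1450239_at), with 2.42 ± 0.085 contralaterally and 2.39 ± 0.055 ipsilaterally (SD, n = 3 each). At this level the correction of background leaves little room for a difference, so these values bound nothing about the gene. With every probe set kept, its difference of -0.030 had an unadjusted limma p of 0.741.

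Gephyrin gathers glycine and GABA-A receptors under the terminal and, in its other role, joins the last steps of molybdenum cofactor synthesis. Its brighter probe set (1426462_at) measured 9.05, 8.82 and 9.14 contralaterally and 8.92, 9.01 and 9.12 ipsilaterally. The second one (1426463_at) measured 8.75, 8.63 and 8.68 contralaterally and 8.61, 8.78 and 8.67 ipsilaterally. In both probe sets replicate 1 was lower on the infused side (-0.13 and -0.14), replicate 2 higher (0.19 and 0.15) and replicate 3 nearly level (-0.020 and -0.0056), so the probe sets shared their order over replicates. The resulting differences were 0.016 (SE 0.12) and -0.00024 (SE 0.092), with unadjusted limma p of 0.898 and 0.998. The 95% intervals reached from 0.833-fold to 1.23-fold and from 0.859-fold to 1.16-fold.

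**Figure D2:**
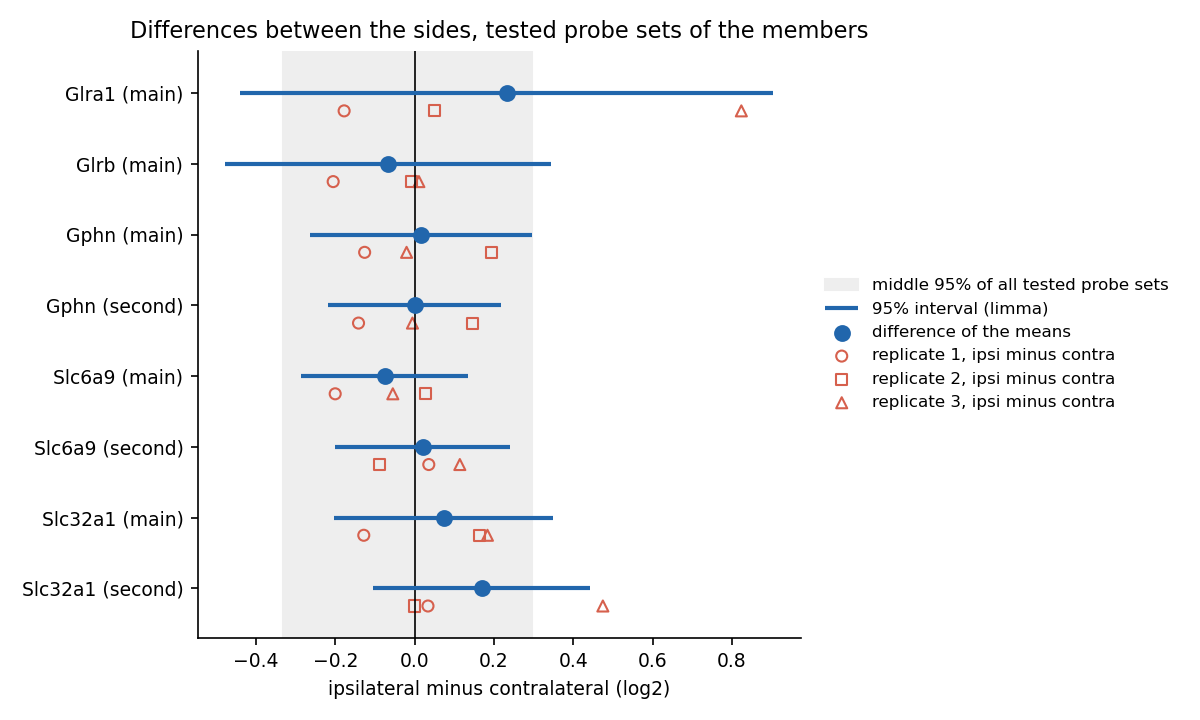
Ipsilateral minus contralateral log2 differences of the 8 tested probe sets are drawn as blue points with their 95% limma intervals, and the difference within each replicate as open red symbols. The grey band holds the middle 95% of the differences of all tested probe sets, from -0.33 to 0.29. Every mean difference lies in the band and every interval includes 0, the widest being that of Glra1, which ends at 0.90.

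Of the transporters, Slc6a9 had the lowest residual SD of the tested probe sets (0.063). GlyT1 is made chiefly by astrocytes in the hindbrain, and the brighter of its probe sets (1417636_at) measured 9.32, 9.26 and 9.28 contralaterally and 9.12, 9.28 and 9.23 ipsilaterally. Ipsilateral array 1 was the lowest, and the sides overlapped because ipsilateral array 2 reached the contralateral values. The difference was -0.076 (SE 0.089) between 9.29 ± 0.033 and 9.21 ± 0.082 (SD, n = 3 each), with an unadjusted limma p of 0.423 and a 95% interval of 0.819-fold to 1.10-fold. The other probe set (1431812_a_at) measured 7.57, 7.74 and 7.62 contralaterally and 7.61, 7.65 and 7.73 ipsilaterally, a difference of 0.020 with an unadjusted limma p of 0.834. Of 12 astrocyte markers 10 had a positive difference, where 49.1% of all genes were higher. Their mean was 10.46, 10.29 and 10.42 contralaterally and 10.45, 10.46 and 10.43 ipsilaterally, with contralateral array 2 the lowest.

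Slc32a1, which fills vesicles with glycine or GABA, measured 8.69, 8.36 and 8.35 contralaterally and 8.56, 8.52 and 8.54 ipsilaterally (1422756_at). The ipsilateral arrays were nearly equal and fell between the high contralateral array 1 and the other two. The means were 8.47 ± 0.19 and 8.54 ± 0.019 (SD, n = 3 each), a difference of 0.073 (SE 0.12) with an unadjusted limma p of 0.553 and a 95% interval of 0.868-fold to 1.27-fold. Without contralateral replicate 1 the difference was 0.18. The second probe set (1456457_at), near the minimum of 4, measured 4.14, 4.18 and 3.95 contralaterally and 4.17, 4.18 and 4.42 ipsilaterally. Replicate 3 alone gave a difference there (0.47, against 0.034 and -0.00039), and the mean difference of 0.17 had the smallest unadjusted limma p of the tested probe sets, 0.186, with an interval of 0.930-fold to 1.36-fold.

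Slc6a5, the transporter that defines glycinergic neurons, was read by 1 dim probe set (1425992_at) at 2.74, 3.72 and 3.20 contralaterally and 2.71, 3.00 and 2.78 ipsilaterally. It was lower on the infused side in 3 of 3 replicates, by 0.029, 0.72 and 0.42, yet the sides overlapped, since contralateral array 1 lay below ipsilateral arrays 2 and 3. The means were 3.22 ± 0.49 and 2.83 ± 0.15 (SD, n = 3 each), a difference of -0.39. With every probe set kept, the unadjusted limma p was 0.148 and the adjusted p 1.00, and 13.8% of 22626 probe sets were lower in 3 of 3 replicates. All of its values were under the minimum mean of 4, where GCRMA values change with the background estimate, so neither the level nor the difference of GlyT2 was settled by these arrays.

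Over the tested probe sets, the lowest end of any 95% interval was -0.48 (Glrb) and the highest 0.90 (Glra1). These intervals came from the fit without a replicate block, and the narrowest was that of the brighter Slc6a9 probe set (-0.29 to 0.14). With 3 arrays a side, that fit excluded neither the shifts inside a probe set's own interval nor the absence of a shift. The replicate block changed the SE in either direction. It was 0.090 for Glrb (0.17 without the block) and 0.13 for the second Slc32a1 probe set (0.12 without the block). With the choroid plexus level in the fit, Glrb differed by -0.14, the brighter Slc6a9 probe set by -0.12 and both Gphn probe sets by -0.038. With ipsilateral array 1 alone, Glrb differed by -0.19, the brighter Slc6a9 probe set by -0.17 and Glra1 by 0.35. In 6 of the 8 probe sets the residual SD was below the median of all tested probe sets (0.16). The exceptions were Glrb (0.25) and Glra1 (0.44).

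The other genes of inhibitory synapses differed in either sign, each gene being represented by its brightest probe set. Of the genes named from these lists, 5 differed by more than the middle 95% of all tested probe sets: Slc38a5, Slc1a5, Gabrr2, Gabrd and Gad2, described with their lists. Genes were named for a small p or after their values were seen, so large differences among them follow from the choice. By brightest probe set, 2.43% of 8754 genes had an unadjusted limma p under 0.05 and 0% an adjusted one. With the replicate number as a block, 3.91% had an unadjusted limma p under 0.05. Of all genes 49.1% were higher, with a median difference of -0.0029. The adjusted limma p was 1.00 for every gene named from these lists. Of the gephyrin partners and inhibitory synapse proteins, 12 of 22 could be tested: 2 were higher and 10 lower, 0 had an unadjusted limma p under 0.05, and the median was -0.043. The smallest p in limma belonged to Gabarap (-0.11, p of 0.336), which binds gephyrin and GABA-A receptors, to the actin regulator Vasp (-0.13, 0.339) and to the kinesin motor gene Kif5a (-0.17, 0.445). The count of higher genes was 5 of 12 without contralateral replicate 1, and 4 once the choroid plexus level was a covariate.

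Of the genes for molybdenum cofactor synthesis and its enzymes 4 of 10 were tested, 3 higher and 1 lower. The lower one was Mocs2, a subunit of molybdopterin synthase, at 9.53 ± 0.045 and 9.43 ± 0.073 (SD, n = 3 each), with sides that did not overlap (6.63% of all genes) and an unadjusted limma p of 0.299, and its second probe set differed by 0.16. The oxidases Xdh and Aox1 differed by 0.092 and 0.041. Without contralateral replicate 3, or without replicate 2 on both sides, 1 of the 4 was higher.

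Of the genes that make and break down serine and glycine 9 of 13 were tested, 6 higher and 3 lower, with a median of 0.036 and 0 at an unadjusted limma p under 0.05. Serine racemase Srr, which makes the NMDA receptor co-agonist D-serine, differed by 0.24 with an unadjusted limma p of 0.126, but its other probe sets by -0.26, -0.33 and 0.027. Shmt2, the mitochondrial enzyme that converts serine to glycine, differed by 0.22, and its other tested probe sets by -0.15 and -0.081. Phgdh, which begins serine synthesis, differed by -0.058, and its other probe sets by 0.045, -0.023 and -0.040.

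Of the other carriers of glycine, serine and small neutral amino acids 9 of 13 were tested, 3 higher and 6 lower, with a median of -0.087. None had an unadjusted limma p under 0.05 without the replicate block and 2 did with it, Slc38a5 and Slc6a20a, neither after adjustment. Slc38a5, a glutamine and glycine carrier, had the largest difference of the list. It measured 4.28, 4.55 and 5.58 contralaterally and 3.85, 3.89 and 5.05 ipsilaterally, dim values that were lower in 3 of 3 replicates while the sides overlapped (-0.54, unadjusted limma p of 0.251, or 0.00238 with the block). Slc1a5 measured 4.19, 4.29 and 4.22 contralaterally and 4.96, 5.06 and 4.12 ipsilaterally, so that 2 of 3 ipsilateral arrays were high (a difference of 0.48, unadjusted limma p of 0.0865, and 0.73 with ipsilateral array 1 alone). Slc6a20a, a proline and glycine carrier, was lower in 3 of 3 replicates (-0.29, unadjusted limma p of 0.163, or 0.0169 with the block). Its difference was -0.16 with the choroid plexus level in the fit and -0.083 with ipsilateral array 1 alone. Slc1a4, a carrier of serine, differed by 0.12 with sides that did not overlap, though its other probe sets gave -0.093 and 0.031. The sides of Slc7a10, a neutral amino acid exchanger that carries glycine and D-serine, did not overlap either (-0.087, unadjusted limma p of 0.351). Sides thus did not overlap in 2 of the 9 tested genes, 1 higher and 1 lower, against 6.63% of all genes.

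**Figure D3:**
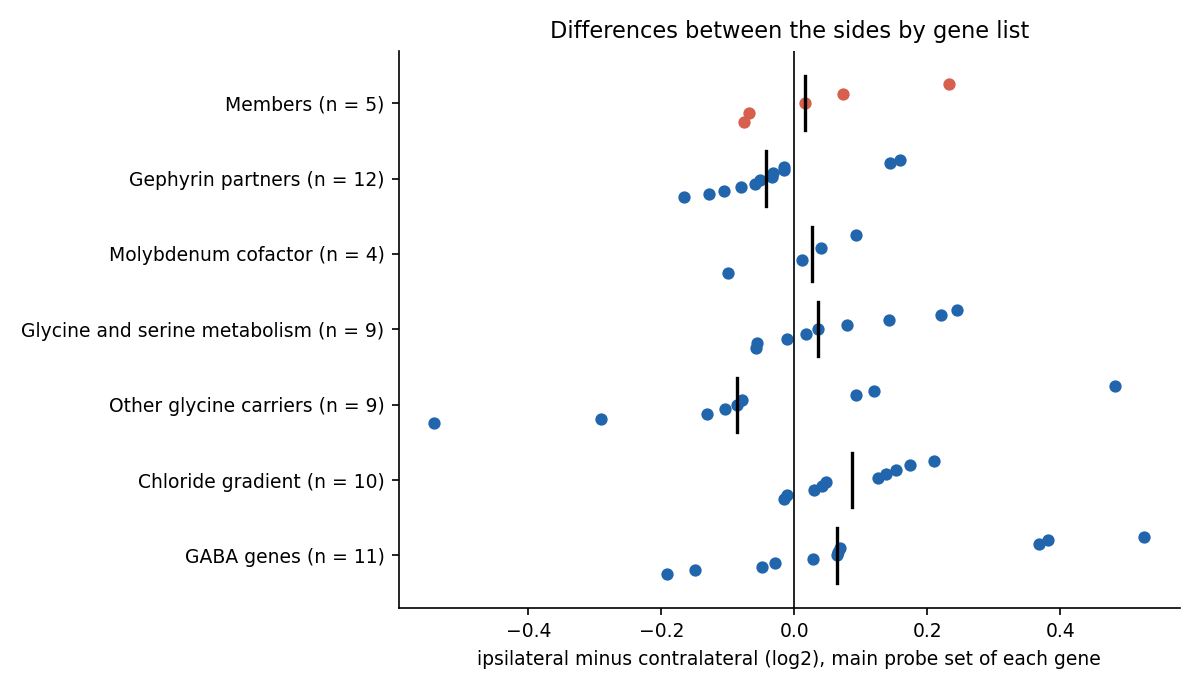
Each point is the ipsilateral minus contralateral log2 difference of 1 gene, by its brightest probe set, and black bars mark the median of each list. The members (red, n = 5) lie between -0.076 and 0.23, and the medians of all 7 lists lie between -0.087 and 0.087.

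The direction of the current that glycine and GABA evoke depends on chloride in the cell, so the genes of chloride balance were described as well. Of 10 tested of 13, 8 were higher and 2 lower, with a median of 0.087 and 0 at an unadjusted limma p under 0.05. Slc12a5, the chloride extruder KCC2, measured 11.53 contralaterally and 11.57 ipsilaterally on average, and the importer Slc12a2 (NKCC1), which choroid plexus also makes, 11.71 and 11.69. Slc12a2 differed by 0.17 with the choroid plexus level in the fit and by 0.35 with ipsilateral array 1 alone. The smallest p in limma were those of the chloride-proton exchanger Clcn3 (0.14, p of 0.176), the kinase Wnk2 (0.17, 0.201) and the cotransporter Slc12a7 (0.21, 0.233). Of the 4 probe sets of Clcn3 all were higher, by 0.016 to 0.26. The second probe set of Wnk2 differed by 0.031, and that of Slc12a7, dim and not tested, by -0.0965. Without replicate 2 on both sides 3 of 10 genes of this list were higher. Positive differences were found in 8 of 8 oligodendrocyte markers (median 0.13) and 9 of 10 microglia markers (median 0.17), against 49.1% of all genes. Of the microglia markers 3 had an unadjusted limma p under 0.05, where 2.43% of all genes did. The part of glial marker levels in the chloride genes was not tested. The oligodendrocyte mean was 12.11 to 12.38 contralaterally and 12.29 to 12.39 ipsilaterally, and the microglia mean 6.95 to 7.15 and 7.16 to 7.25.

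Of the GABA receptor, synthesis and transport genes 11 of 24 were tested, 7 higher and 4 lower, with a median of 0.065. The rho subunit gene Gabrr2 was the single one with an unadjusted limma p under 0.05 in the fit without a replicate block, and with the block Gabrd and Gad2 joined it, none after adjustment. Gabrr2 measured 4.33, 4.42 and 4.03 contralaterally and 4.92, 4.84 and 4.59 ipsilaterally, a dim signal. Its difference was 0.53 (unadjusted limma p of 0.00813, adjusted p of 1.00), with sides that did not overlap (6.63% of all genes). Gad2 (0.37) and the extrasynaptic subunit gene Gabrd (0.38) were higher in 3 of 3 replicates with unadjusted limma p of 0.0940 and 0.116, or 0.0367 and 0.00924 with the block. The difference of Gabrd was 0.20 with the choroid plexus level in the fit and 0.052 with ipsilateral array 1 alone. The gene Gad1, another GABA-synthesizing enzyme, differed by -0.030. Without replicate 3 on both sides 4 of the 11 genes were higher.

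**Figure D4:**
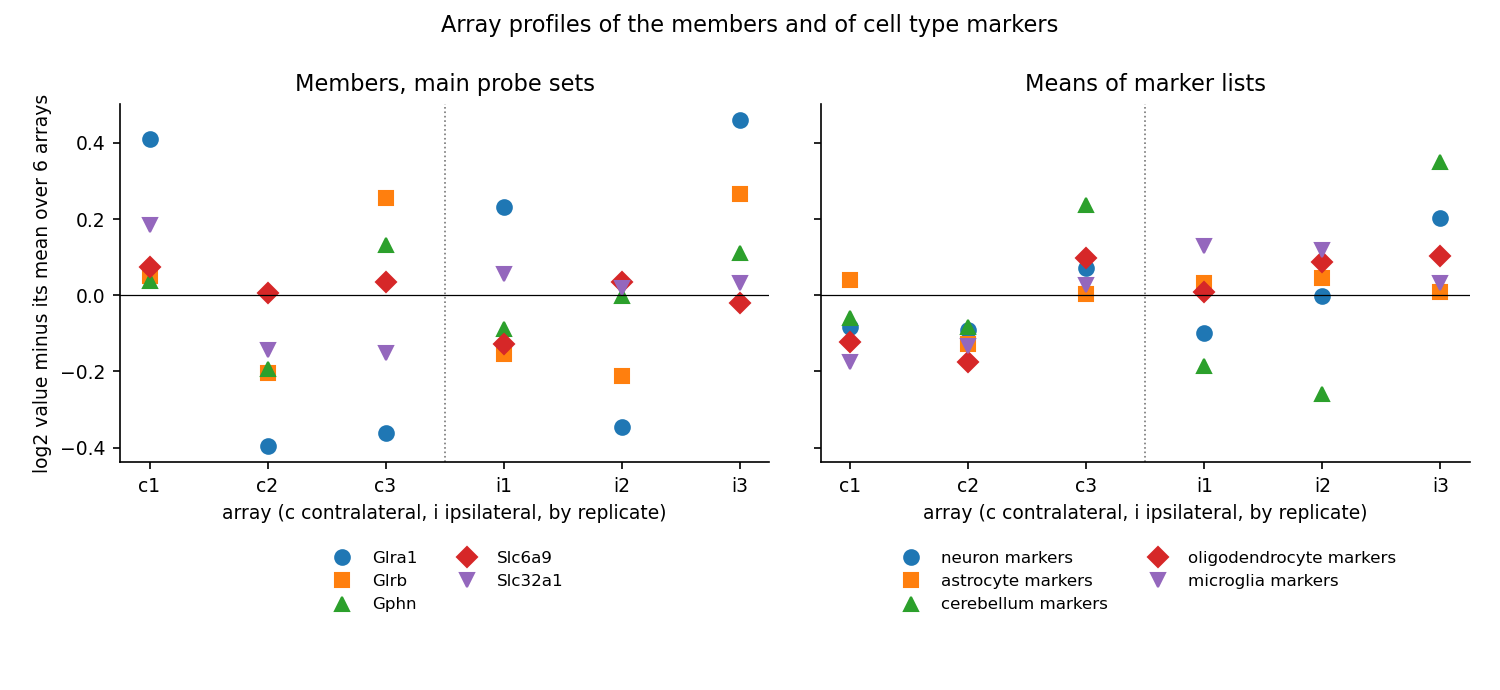
Log2 values of the 5 main tested probe sets (left) and mean log2 values of 5 marker lists (right) are plotted for each array after subtraction of their mean over the 6 arrays, with contralateral arrays left of the dotted line. Glrb and Gphn are highest on both arrays of replicate 3, where the neuronal and cerebellar marker means are highest too, and Glra1 is high on contralateral array 1 and ipsilateral arrays 1 and 3.

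Over the 6 arrays Glra1 had the widest range of the tested members, and 8753 other genes were compared with it by the root mean square difference of their centred log2 values. The nearest were the collagen gene Col7a1 (0.13), the Wnt receptor gene Fzd7 (0.15) and Nckap5l (0.18). Their side differences were 0.16, 0.042 and 0.26, with unadjusted limma p of 0.553, 0.891 and 0.380. As these genes were chosen by likeness to Glra1 on the same arrays, side differences and spreads near its own follow from the choice.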

How the data were processed

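The authors deposited log2 GCRMA expression values per probe set for 6 Affymetrix arrays. The submitters' processing notes name GCRMA without a version or settings, and the log2 scale was inferred from the range of values (1.40 to 16.0). GCRMA corrects background, normalizes between arrays and shrinks dim probe sets, so a change common to most genes is removed. Arrays have no read depth, and their number limits precision. The descriptions of the samples gave side and replicate. Gene names were taken from the repository's platform annotation: 20393 of 22690 probe sets had 1 symbol, 691 several and 1606 none, and all 7 measured members matched a RefSeq symbol.

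The 64 control probe sets and 7328 with a mean at or below 4 were left out. limma 3.58.1 in R 4.3.3 (lmFit, eBayes) compared the sides over the 15298 others, with no replicate block, two-sided p and Benjamini-Hochberg adjustment over all of them at 0.05. Intervals are 95% limma intervals for single probe sets. The replicates are described as biological pools. As 1 ear was infused, arrays of 1 number were taken as both sides of 1 pool of mice. Their deviations from the side's mean correlated at 0.091, 0.044 and 0.57, and those of unlike numbers at -0.37 to 0.30, so the values set replicate 3 apart and did not pair replicates 1 and 2. The members and lists were chosen with earlier results of these data known. All members were named, with the 3 genes of smallest p in each list and the 3 genes nearest to the member of widest range; Slc38a5, Slc7a10, Slc12a5, Slc12a2, Gad1, Fos and the marker genes were added after their values were seen. The fit was tested on simulated data with independent arrays, without the replicate and choroid plexus differences seen here. That test checked only the mean estimate of a known change.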

Additional observations from a re-analysis of the deposited data

How the results depend on the processing

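No member probe set passed an adjusted p of 0.05 in limma under any of the alternatives: quantile normalization or median centring, all probe sets or those with a mean above 6, array weights, a trended and robust or an unmoderated variance, the replicate number as a fixed or random block, choroid plexus level as a covariate, ipsilateral replicate 1 alone against the contralateral arrays, no probe sets prone to cross-hybridization, a threshold of 0.1, and leaving out each array or each replicate number. Their smallest adjusted p was 0.991, and none had an unadjusted p under 0.05. With the replicate block, 569 of all probe sets had an unadjusted p under 0.05 in limma (615 with a random block, 571 with ipsilateral replicate 1 alone, 233 with a mean above 6, where fewer were tested), against 364, and the block changed no call after adjustment. All probe sets called at the adjusted threshold numbered 0 to 5 over the fits that left out arrays (5 when ipsilateral replicate 1 was left out, 2 when both arrays of replicate 1 were, and 0 otherwise). Counts at an unadjusted p and over the gene lists were added to these alternatives after seeing the data. The number of higher member probe sets was 3 with a mean above 6 (fewer tested), with the choroid plexus covariate and with ipsilateral replicate 1 alone.

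Small differences changed sign. For Gphn the brighter probe set gave -0.013 with array weights, -0.038 with the choroid plexus covariate and -0.080 with ipsilateral replicate 1 alone, and -0.078 to 0.087 when arrays were left out. Its second one gave 0.0072 with median centring and -0.074 to 0.070 when arrays were left out. The second Slc6a9 probe set gave -0.0080 with the covariate, -0.036 with ipsilateral replicate 1 alone and -0.027 to 0.075 when arrays were left out. Leaving out arrays gave -0.064 to 0.50 for Glra1 and -0.22 to 0.043 for Glrb. Among the other genes named, it gave -0.14 to 0.22 for Aox1, -0.092 to 0.27 for Xdh, -0.36 to 0.067 for Kif5a, -0.036 to 0.39 for Slc12a7, -0.15 to 0.44 for Col7a1, -0.17 to 0.30 for Fzd7 (-0.030 with array weights), -0.013 to 0.52 for Nckap5l, -0.21 to 0.14 for Gad1, -0.0053 to 0.14 for Slc12a5 (-0.023 with ipsilateral replicate 1 alone) and -0.20 to 0.17 for Slc12a2 (0.037 with array weights, 0.17 with the covariate, 0.35 with ipsilateral replicate 1 alone). The cause of these changes was not tested.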
